A study of Mus musculus with 24 samples.

Results

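The expression of 44 genes of DNA replication and S phase was measured by RNA-seq in CD8+ T cells of the mouse, which were first activated in vitro and later treated with bile acids. The 44 genes were chosen by symbol for their known function, with earlier results of these data known, so the list is not independent support. All 44 were found among the 24537 genes of the deposited table and passed the filter on low counts, which left 13044 genes to test. The design held 8 groups of 3 RNA-seq libraries: a control, 5 unconjugated acids at 50 µM and a pair of taurine conjugates at 100 µM. The unconjugated acids were LCA, which is lithocholic acid, its relatives IsoLCA (isolithocholic acid), DehydroLCA (dehydrolithocholic acid) and IsoAlloLCA (isoallolithocholic acid), and UDCA (ursodeoxycholic acid). The conjugates were TCA (taurocholic acid) and TCDCA (taurochenodeoxycholic acid). All 8 groups shared the in vitro activation; the labels name no strain, genotype, age or vehicle of the control. Exposure is given as 24 h in one part of the record and as overnight in another. Whether the 3 libraries of a group stem from different mice or cultures is not stated in the labels, and the p-values therefore cover only the spread between these libraries, which may be technical.

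Before a cell copies its DNA, the origin recognition complex, Cdc6 and Cdt1 load the ring-shaped MCM helicase onto origins, a step called licensing. On entry into S phase, kinases, Mcm10, Cdc45 and the GINS complex turn the loaded rings into active helicases, DNA polymerases copy the strands with the help of the sliding clamp PCNA, and the replication protein A (RPA) complex covers single strands. Many of these genes are classical targets of E2F transcription factors, and activated CD8+ T cells, which divide fast, express them strongly.

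Among the acids, IsoLCA is LCA with the hydroxyl group of the A ring turned to the opposite face, and DehydroLCA carries a ketone in place of that hydroxyl. IsoAlloLCA has the hydroxyl of IsoLCA and in addition a flat instead of a bent junction of the A and B rings. UDCA has an additional hydroxyl group on the B ring. TCA has an additional hydroxyl group on the C ring compared with TCDCA.

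The libraries held 25998051 to 41024340.5 counts in genes. The share of a library's reads that lay in exons was 82.6% ± 1.37 (SD, n = 3) in control, 80.7% ± 1.52 with LCA and 78.3% ± 2.78 with IsoAlloLCA, and LCA replicate 2 (79.3%) and IsoAlloLCA replicate 2 (75.6%) were the lowest of their groups. CD8 T cell identity was checked with a list of 13 markers, of which 10 were matched by symbol. Over all libraries Cd8a stood at 586 to 777 CPM (counts scaled to a common library size, for the markers without TMM factors). Cd3e stood at 282 to 419 CPM. Markers of other cells varied in level. Cd4 reached at most 1.22 CPM and Lyz2 at most 0.33 CPM, and Alb, S100a8 and Siglech were at 0. Higher levels were found for Foxp3 (7.65 to 11.4 CPM), Pecam1 (31.0 to 51.5 CPM), Cd79b (3.48 to 5.78 CPM) and Epcam (2.66 to 4.43 CPM). H2-Ab1 and Eomes, given below, were also higher. The summed CD8 markers lay at 7943 to 8222 CPM in control, 6971 to 7521 CPM with LCA and 6769 to 7533 CPM with IsoAlloLCA, and at 7314 to 8705 CPM in the other 5 groups. Gzmb made the largest contribution to this sum (1925 to 4125 CPM over all libraries). The part of Gzmb in the lower sums was not tested, so they are not a reading of CD8 identity alone. The 12 myeloid and dendritic markers summed to 30.6 to 36.5 CPM in control, 15.7 to 16.9 CPM with LCA and 32.0 to 33.1 CPM with IsoAlloLCA, and the 5 natural killer cell markers to 26.1 to 27.0, 22.5 to 24.2 and 15.5 to 18.3 CPM. Most of the myeloid and dendritic sum came from a single gene, H2-Ab1 (13.6 to 34.4 CPM over all libraries). Most of the natural killer cell sum came from Eomes (13.8 to 35.5 CPM). CD4 T cell markers summed to 8.51 to 12.3 CPM, B cell markers to 4.41 to 6.43 CPM and stromal, epithelial and erythroid markers to 35.2 to 56.0 CPM over all libraries. The part of these differences in the results was not tested. In bulk RNA, fewer cells in S phase and less RNA per cell cannot be told apart.

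From here on CPM are scaled with TMM factors, unlike those of the markers. On a scale that divides CPM by transcript length (RPKM), the mean level over the 24 libraries ranged from 433 RPKM for Pcna, the sliding clamp, to 12.9 RPKM for Gins3, a GINS subunit. Pcna was followed by Rrm2 (268 RPKM), the regulated subunit of ribonucleotide reductase, and by Mcm3 (176 RPKM). The 6 MCM subunits formed a narrow band of 117 to 176 RPKM on this scale, while the 9 polymerase and primase genes lay lower, at 25.0 to 69.1 RPKM. Replicates were close: the coefficient of variation of a member over the 3 control libraries had a median of 2.38% (range 0.53% to 6.99%). It had a median of 3.53% with LCA and 5.84% with IsoAlloLCA.

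Because many replication genes are known E2F targets, their promoter sequences were searched for E2F words. RefSeq windows of build GRCm38.p6, from 250 bases before to 50 bases after the transcription start, were found for 36 of the 44 genes. Rfc2, Pole, Prim2, Gins1, Ccne2, Mcm4, Gins4 and Gins2 had none. The window whose start was nearest that of the deposited transcript was used. For E2f1 and Cdc6 this start lay inside the gene, 466 and 262 bases away. E2f1 was counted among the members without an E2F word. Cdc6 was counted among those with one, although its word, 138 bases before the window's start, also lay inside the gene. An E2F word was defined as TTTCGCGC, TTTGGCGC, TTTCCCGC or TTTGCCGC on either strand, so that its reverse complements GCGCGAAA, GCGCCAAA, GCGGGAAA and GCGGCAAA also counted. The CCAAT box was searched as CCAAT or ATTGG. The 250 bases before the start are shown for 3 genes that hold an E2F word there, the helicase subunits Mcm5 and Mcm6 and the origin recognition gene Orc1, and for Ung and Ccne1, the members with the largest falls under IsoAlloLCA, whose windows hold neither an E2F word nor a CCAAT box. Capitals mark E2F words and CCAAT boxes, and each sequence runs 5′ to 3′ on the gene's own strand.
Mcm5 (chr8:75109259-75109508, plus strand): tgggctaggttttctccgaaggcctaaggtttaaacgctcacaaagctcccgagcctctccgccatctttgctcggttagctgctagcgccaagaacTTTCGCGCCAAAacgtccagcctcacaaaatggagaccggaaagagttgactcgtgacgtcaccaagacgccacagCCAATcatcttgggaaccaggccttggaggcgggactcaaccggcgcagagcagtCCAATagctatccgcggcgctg
Mcm6 (chr1:128359706-128359955, minus strand): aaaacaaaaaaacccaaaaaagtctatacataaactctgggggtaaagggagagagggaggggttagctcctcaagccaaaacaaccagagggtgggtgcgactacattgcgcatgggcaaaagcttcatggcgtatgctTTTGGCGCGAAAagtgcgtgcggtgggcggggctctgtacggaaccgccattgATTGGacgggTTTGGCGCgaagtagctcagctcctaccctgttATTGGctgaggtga
Orc1 (chr4:108579204-108579453, plus strand): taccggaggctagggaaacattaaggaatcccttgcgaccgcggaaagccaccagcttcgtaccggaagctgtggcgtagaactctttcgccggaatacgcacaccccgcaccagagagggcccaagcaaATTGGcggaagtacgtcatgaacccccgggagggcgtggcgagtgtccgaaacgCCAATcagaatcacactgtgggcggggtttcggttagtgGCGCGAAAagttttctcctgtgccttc
Ung (chr5:114130185-114130434, plus strand): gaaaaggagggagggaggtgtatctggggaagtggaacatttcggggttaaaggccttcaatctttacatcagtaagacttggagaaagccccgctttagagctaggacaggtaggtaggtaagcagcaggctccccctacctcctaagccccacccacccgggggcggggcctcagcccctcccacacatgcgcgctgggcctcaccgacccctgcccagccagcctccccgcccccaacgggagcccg
Ccne1 (chr7:38107491-38107740, minus strand): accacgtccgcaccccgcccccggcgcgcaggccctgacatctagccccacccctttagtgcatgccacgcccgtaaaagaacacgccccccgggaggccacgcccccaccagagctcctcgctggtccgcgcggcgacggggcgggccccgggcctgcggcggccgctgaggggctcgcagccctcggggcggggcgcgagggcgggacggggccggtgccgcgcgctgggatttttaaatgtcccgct
In Mcm5 an E2F word began 153 bases before the start and overlapped a second word on the other strand, and CCAAT boxes lay 77 and 22 bases before the start. Mcm6 held an overlapping pair of words 110 and 106 bases before the start and a further word at 47, with CCAAT boxes at 57 and 14. Orc1 held 1 word, 27 bases before the start, and CCAAT boxes at 120 and 66. Over the whole windows, 14 of 36 members (38.9%) held an E2F word, against 2.90% of the 17595 genes with a window and 4.30% of the 9904 tested genes with one. A CCAAT box was present in 22 of 36 members (61.1%) and in 38.8% of all genes with a window. A match of letters is a description of the window and not a binding site.

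The summed level of the 44 genes was 9020 ± 143 CPM (SD, n = 3) in control, 8230 ± 205 CPM with LCA and 7090 ± 385 CPM with IsoAlloLCA. These are 91.2% and 78.6% of the control level. With the other 5 acids the sum stayed between 98.4% (TCDCA) and 99.4% (UDCA) of control. Against control, 40 of the 44 genes fell with IsoAlloLCA and none rose, where 58.4% of all tested genes were called, 27.8% lower and 30.6% higher. With LCA 25 fell and 1 rose, where 36.5% of all tested genes were called, 18.8% lower and 17.7% higher. All 3 IsoAlloLCA libraries lay below all 3 controls in 41 members, against 28.5% of all tested genes, and all 3 LCA libraries did so in 27 members, against 23.8%. A call here and below is an edgeR quasi-likelihood test whose p, adjusted by Benjamini-Hochberg over all 13044 genes, was under 0.05, and fold changes are log2 values ± SE of 3 libraries against 3. The median log2 fold change of the 44 genes was -0.29 with IsoAlloLCA and -0.14 with LCA, where the median over all tested genes was 0.03 and 0.01. With the share of reads in exons as a covariate, the medians of the 44 genes were -0.22 and -0.08. All comparisons with control share the same 3 control libraries.

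**Figure D1:**
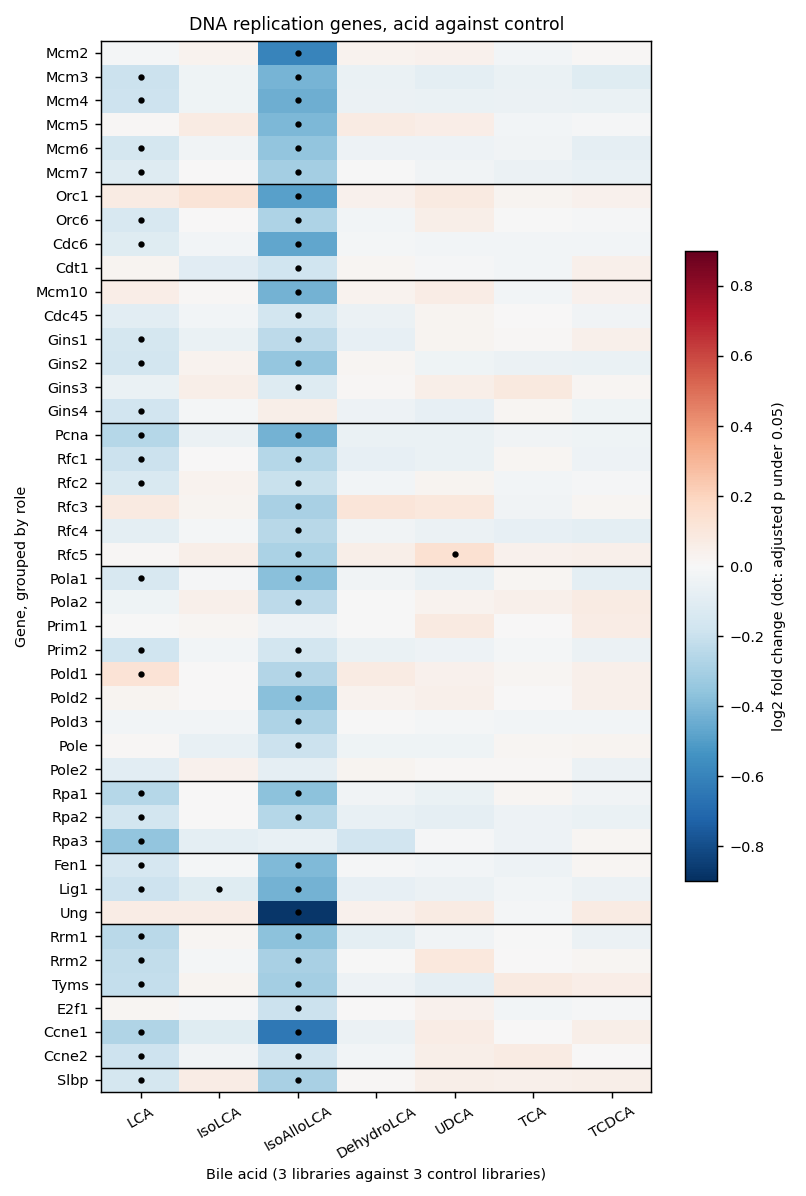
Log2 fold change of each of the 44 genes (vertical axis, grouped by role) for each bile acid against control (horizontal axis), with a dot where the adjusted p was under 0.05. The IsoAlloLCA column is blue for all genes but Gins4 and holds 40 dots, the LCA column holds 26, and the other 5 columns hold 2 in all.

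**Figure D2:**
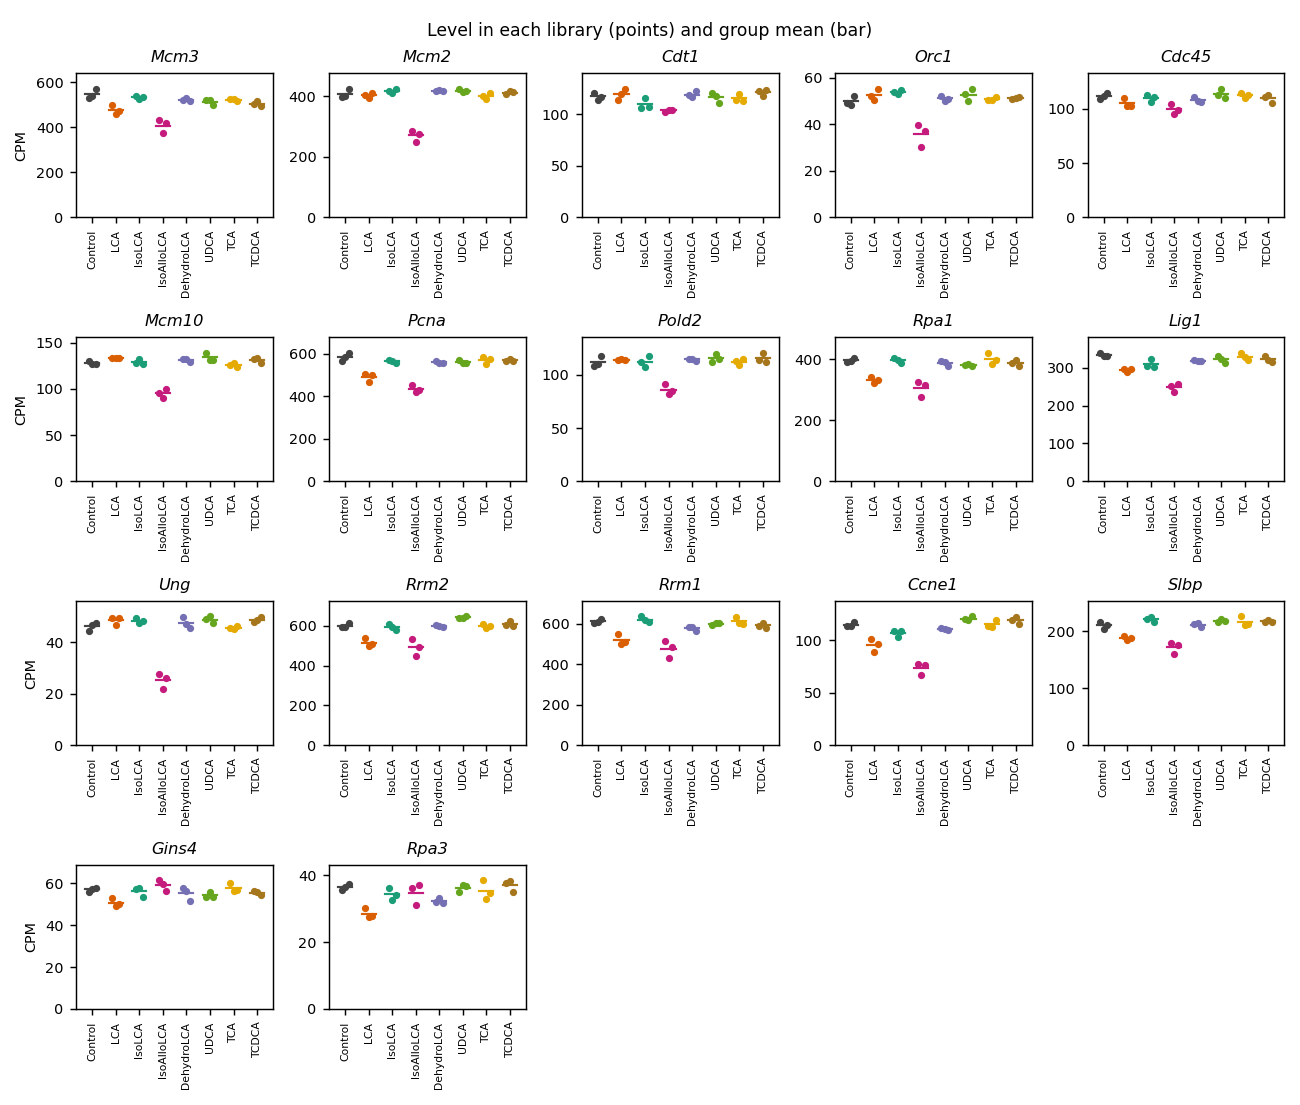
Level in CPM (vertical axes, from 0) of 17 of the genes in each of the 24 libraries, by group (horizontal axes), with a bar at the group mean. The IsoAlloLCA points are lowest for Mcm2, Mcm3, Orc1, Cdt1, Mcm10, Pcna, Pold2, Lig1, Ung, Ccne1 and Slbp, and the LCA points are lowest for Rpa3.

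Transcripts of all 6 MCM helicase subunits fell with IsoAlloLCA, with log2 fold changes from -0.59 to -0.31. Mcm2 (mm10 chr6:88883474-88898780, minus strand) stood at 399, 402 and 423 CPM in the 3 control libraries, 405, 395 and 409.8 CPM with LCA, 287, 248.8 and 276 CPM with IsoAlloLCA and 390.0 to 425 (median 416) CPM in the 15 libraries of the other acids. Every IsoAlloLCA library thus lay below all others, and the LCA libraries overlapped the controls. The fall with IsoAlloLCA was 0.59 ± 0.04 on the log2 scale (edgeR adjusted p = 2.14e-12), or 33.7%, and the LCA value was -0.02 ± 0.04 (adjusted p = 0.7603). Mcm3, the most abundant subunit per length, stood at 529, 537 and 571 CPM in control, 498, 461 and 474 CPM with LCA, 431, 374 and 418 CPM with IsoAlloLCA and 493 to 539.8 (median 521) CPM in the other 15. Its libraries were ordered control, LCA, IsoAlloLCA without overlap between these groups. Mcm3 fell by 0.42 ± 0.04 with IsoAlloLCA and by 0.19 ± 0.04 with LCA (adjusted p = 5.05e-09 and 7.58e-04). With LCA, 4 of 6 subunits fell, and Mcm4 had the smallest adjusted p among them (-0.19 ± 0.04, adjusted p = 3.53e-04). Mcm5, like Mcm2, did not pass with LCA (0.01 ± 0.04) but fell by 0.40 ± 0.04 with IsoAlloLCA.

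Licensing factors moved in the same direction with IsoAlloLCA, where 4 of 4 fell. Orc1, the largest subunit of the origin recognition complex, stood at 49.2, 48.2 and 52.3 CPM in control, 52.2, 50.6 and 55.1 CPM with LCA, 39.8, 30.1 and 37.2 CPM with IsoAlloLCA and 50.03 to 55.4 (median 51.8) CPM in the other 15 libraries. The IsoAlloLCA libraries were again the lowest of all, while the LCA libraries overlapped control. Orc1 fell by 28.6% with IsoAlloLCA (-0.49 ± 0.06, adjusted p = 3.65e-07) and did not pass with LCA (0.07 ± 0.06, adjusted p = 0.3496). Cdc6, the ATPase that brings the helicase to origins, fell by 0.47 ± 0.04 with IsoAlloLCA and by 0.11 ± 0.04 with LCA. Cdt1, the Cdc6 partner in loading, moved less: it stood at 121, 114 and 117 CPM in control, 114, 120.1 and 125 CPM with LCA, 102, 105 and 104 CPM with IsoAlloLCA and 106 to 124 (median 118) CPM in the other 15. Its IsoAlloLCA libraries lay below all others (-0.18 ± 0.04, adjusted p = 7.05e-04), and the next lowest libraries were IsoLCA replicates 1 and 3. Orc6, a small origin recognition subunit, fell with both acids (-0.28 ± 0.04 with IsoAlloLCA and -0.15 ± 0.04 with LCA). Without LCA replicate 2 the Orc6 value with LCA was -0.10 and did not pass.

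Genes that activate the loaded helicase split in their response. Mcm10, which helps to open the helicase at origins, stood at 130.2, 127 and 127 CPM in control, 134, 134 and 133 CPM with LCA, 95.7, 90.7 and 99.9 CPM with IsoAlloLCA and 124 to 139 (median 131) CPM in the other 15 libraries. It was lowest in the 3 IsoAlloLCA libraries while the 3 LCA libraries lay above the controls. Mcm10 fell by 25.5% with IsoAlloLCA (-0.43 ± 0.03, adjusted p = 1.45e-10) and was 0.06 ± 0.03 with LCA (adjusted p = 0.174). Cdc45, a core part of the active helicase, stood at 109, 112 and 115 CPM in control, 110.0, 102 and 103 CPM with LCA, 105, 95.2 and 99.3 CPM with IsoAlloLCA and 105 to 119 (median 111) CPM in the other 15. Its IsoAlloLCA libraries lay below control but overlapped LCA (-0.17 ± 0.04, adjusted p = 0.00115). The 4 GINS subunits did not move as a unit. With IsoAlloLCA Gins1, Gins2 and Gins3 fell (-0.24 ± 0.06, -0.35 ± 0.06 and -0.11 ± 0.05), and Gins4 did not pass (0.05 ± 0.04, adjusted p = 0.2998). With LCA Gins1, Gins2 and Gins4 fell (-0.16 ± 0.06, -0.17 ± 0.06 and -0.17 ± 0.04), and Gins3 did not pass (-0.06 ± 0.04). Gins4 stood at 56.1, 57.5 and 57.7 CPM in control, 52.9, 49.2 and 50.1 CPM with LCA, 61.5, 59.9 and 56.5 CPM with IsoAlloLCA and 51.7 to 60.1 (median 56.1) CPM in the other 15. All LCA libraries and all UDCA libraries (53.6, 55.8 and 53.8 CPM) lay below the controls, and the UDCA value did not pass (-0.07 ± 0.04). With the share of reads in exons as a covariate, Gins4 rose with IsoAlloLCA (0.13).

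Both the sliding clamp and its loader fell with IsoAlloLCA (6 of 6 genes), and 3 of 6 fell with LCA. Pcna (mm10 chr2:132249286-132253180, minus strand), the clamp that keeps polymerases on DNA, stood at 567, 582 and 605 CPM in control, 507, 466 and 499 CPM with LCA, 455, 419.6 and 430.4 CPM with IsoAlloLCA and 554 to 583 (median 565) CPM in the other 15 libraries. The 3 groups did not overlap, with control highest and IsoAlloLCA lowest. Pcna fell by 25.7% with IsoAlloLCA (-0.43 ± 0.04, adjusted p = 2.19e-10) and by 16.2% with LCA (-0.25 ± 0.04, adjusted p = 4.31e-06). Of the replication factor C subunits, which load the clamp, Rfc1 and Rfc2 fell with LCA (-0.20 ± 0.03 and -0.14 ± 0.04), whereas Rfc3, Rfc4 and Rfc5 did not pass (0.08 ± 0.04, -0.09 ± 0.06 and 0.01 ± 0.04). With IsoAlloLCA the 5 subunits fell by 0.29 ± 0.04 (Rfc3) to 0.20 ± 0.04 (Rfc2).

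DNA polymerase and primase genes had the summed level closest to control with LCA, 98.9%: 2 of 9 fell, 1 rose and 6 did not pass. With IsoAlloLCA 7 of 9 fell and the sum was 84.6% of control. Pold2, a subunit of polymerase delta, which copies the lagging strand, stood at 108, 110.0 and 118 CPM in control, 114, 115 and 114 CPM with LCA, 91.7, 82.02 and 84.9 CPM with IsoAlloLCA and 107 to 121 (median 114) CPM in the other 15 libraries. Only the IsoAlloLCA libraries were set apart, below all others (-0.38 ± 0.04, adjusted p = 6.60e-08, against 0.03 ± 0.04 with LCA). Pold1, the catalytic subunit of polymerase delta, went in opposite directions: it fell by 0.26 ± 0.05 with IsoAlloLCA and rose by 0.12 ± 0.05 with LCA (adjusted p = 0.03703). Its level was 198, 187 and 181 CPM in control and 194, 207 and 215 CPM with LCA, so that these groups overlapped. The rise did not pass without Control replicate 2 or 3, without LCA replicate 2 or 3, or with the exon share as covariate (0.07). Pola1 and Prim2, of the polymerase alpha and primase complex that starts new strands, fell with both acids (Pola1 -0.38 ± 0.05 and -0.14 ± 0.05, Prim2 -0.17 ± 0.04 and -0.18 ± 0.04, IsoAlloLCA first). Prim1, the catalytic primase subunit, and Pole2, a subunit of the leading-strand polymerase epsilon, passed with neither: Prim1 was -0.04 ± 0.03 with IsoAlloLCA and -0.00 ± 0.03 with LCA, and Pole2 -0.08 ± 0.05 and -0.10 ± 0.05. The remaining genes, Pola2, Pold3 and Pole, fell with IsoAlloLCA (-0.24 ± 0.03, -0.28 ± 0.03 and -0.19 ± 0.05) and did not pass with LCA.

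RPA, the complex that coats single-stranded DNA, was the role in which LCA was closest to IsoAlloLCA, with summed levels of 84.6% and 79.9% of control. Rpa1, its large subunit, stood at 389, 394 and 404 CPM in control, 343, 323 and 329.9 CPM with LCA, 326, 277 and 315 CPM with IsoAlloLCA and 376 to 421 (median 387) CPM in the other 15 libraries. Both acids lay below every control library, and they overlapped each other (-0.25 ± 0.04 with LCA, adjusted p = 7.78e-05, and -0.37 ± 0.04 with IsoAlloLCA, adjusted p = 1.12e-07). Rpa2 fell with both (-0.16 ± 0.05 and -0.26 ± 0.05). Rpa3 (mm10 chr6:8255936-8259141, minus strand), the smallest subunit, was the gene with the largest LCA response, at 35.5, 36.4 and 37.5 CPM in control, 30.1, 27.5 and 27.8 CPM with LCA, 36.3, 31.1 and 37.1 CPM with IsoAlloLCA and 31.8 to 38.5 (median 34.9) CPM in the other 15. It fell by 21.8% with LCA (-0.36 ± 0.06, adjusted p = 6.81e-05) and did not pass with IsoAlloLCA (-0.07 ± 0.06, adjusted p = 0.353), where replicates 1 and 3 lay within the control range and replicate 2 lay below it. The sign of the IsoAlloLCA value turned without IsoAlloLCA replicate 2 (0.0087) and with the exon share as covariate (0.11).

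Okazaki fragment maturation and uracil repair held the gene with the largest response to IsoAlloLCA. Ung (mm10 chr5:114130435-114139321, plus strand), the uracil DNA glycosylase that removes uracil from newly made DNA, stood at 44.6, 46.9 and 47.5 CPM in control, 49.5, 46.7 and 49.7 CPM with LCA, 27.7, 21.99 and 26.01 CPM with IsoAlloLCA and 45.2 to 50.1 (median 47.7) CPM in the other 15 libraries. The 3 IsoAlloLCA libraries stood far below the remaining 21, which lay within 44.6 to 50.1 CPM. Ung fell by 45.6% with IsoAlloLCA (-0.88 ± 0.06, adjusted p = 1.85e-12) and was 0.07 ± 0.05 with LCA (adjusted p = 0.312). Lig1, the ligase that joins Okazaki fragments, stood at 341, 332 and 332 CPM in control, 298, 288 and 297 CPM with LCA, 253, 236 and 258 CPM with IsoAlloLCA and 302 to 338 (median 321) CPM in the other 15. Its groups were ordered control, LCA, IsoAlloLCA without overlap (-0.19 ± 0.04 with LCA, adjusted p = 1.83e-04, and -0.43 ± 0.04 with IsoAlloLCA, adjusted p = 1.92e-10). Fen1, the nuclease that trims the fragments, fell by 0.40 ± 0.05 with IsoAlloLCA and by 0.15 ± 0.05 with LCA.

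Deoxynucleotide supply fell with both acids in 3 of 3 genes. Rrm2, which limits ribonucleotide reductase in S phase, stood at 594, 593 and 614 CPM in control, 537, 498 and 507 CPM with LCA, 532, 448 and 494 CPM with IsoAlloLCA and 578 to 648 (median 605) CPM in the other 15 libraries. LCA and IsoAlloLCA overlapped each other and lay below every control library (-0.22 ± 0.04, adjusted p = 1.92e-04, and -0.29 ± 0.04, adjusted p = 2.36e-06). Rrm1, the large reductase subunit, stood at 606, 610.0 and 624 CPM in control, 550.0, 498 and 508 CPM with LCA, 515, 429 and 483 CPM with IsoAlloLCA and 565 to 636 (median 603) CPM in the other 15. Its highest IsoAlloLCA library lay within the LCA range (-0.24 ± 0.05, adjusted p = 2.11e-04, and -0.37 ± 0.05, adjusted p = 2.49e-07). Tyms, thymidylate synthase, fell by 0.22 ± 0.04 with LCA and 0.31 ± 0.04 with IsoAlloLCA.

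Cyclin E, which drives entry into S phase with its kinase, was lower with both acids. Ccne1 (mm10 chr7:38097984-38107490, minus strand) stood at 114, 114 and 118 CPM in control, 101, 89.2 and 96.4 CPM with LCA, 77.6, 67.2 and 76.5 CPM with IsoAlloLCA and 103 to 123 (median 114) CPM in the other 15 libraries. The order control, LCA, IsoAlloLCA held without overlap. Ccne1 fell by 36.1% with IsoAlloLCA (-0.64 ± 0.05, adjusted p = 1.96e-11), next to Ung the largest fall of the 44 genes, and by 16.9% with LCA (-0.27 ± 0.05, adjusted p = 6.29e-05). Ccne2, the second cyclin E gene, fell with both (-0.17 ± 0.05 and -0.19 ± 0.05). E2f1, an activator of replication genes, fell with IsoAlloLCA (-0.19 ± 0.04, adjusted p = 1.39e-04) and was 0.02 ± 0.04 with LCA. Slbp, which binds the stem-loop of replication-dependent histone mRNAs, stood at 216, 205 and 212 CPM in control, 192, 185 and 188 CPM with LCA, 181, 161 and 175 CPM with IsoAlloLCA and 208 to 226 (median 217) CPM in the other 15. Slbp groups were ordered control, LCA, IsoAlloLCA without overlap (-0.16 ± 0.04, adjusted p = 0.00117, and -0.29 ± 0.04, adjusted p = 2.45e-07).

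**Figure D3:**
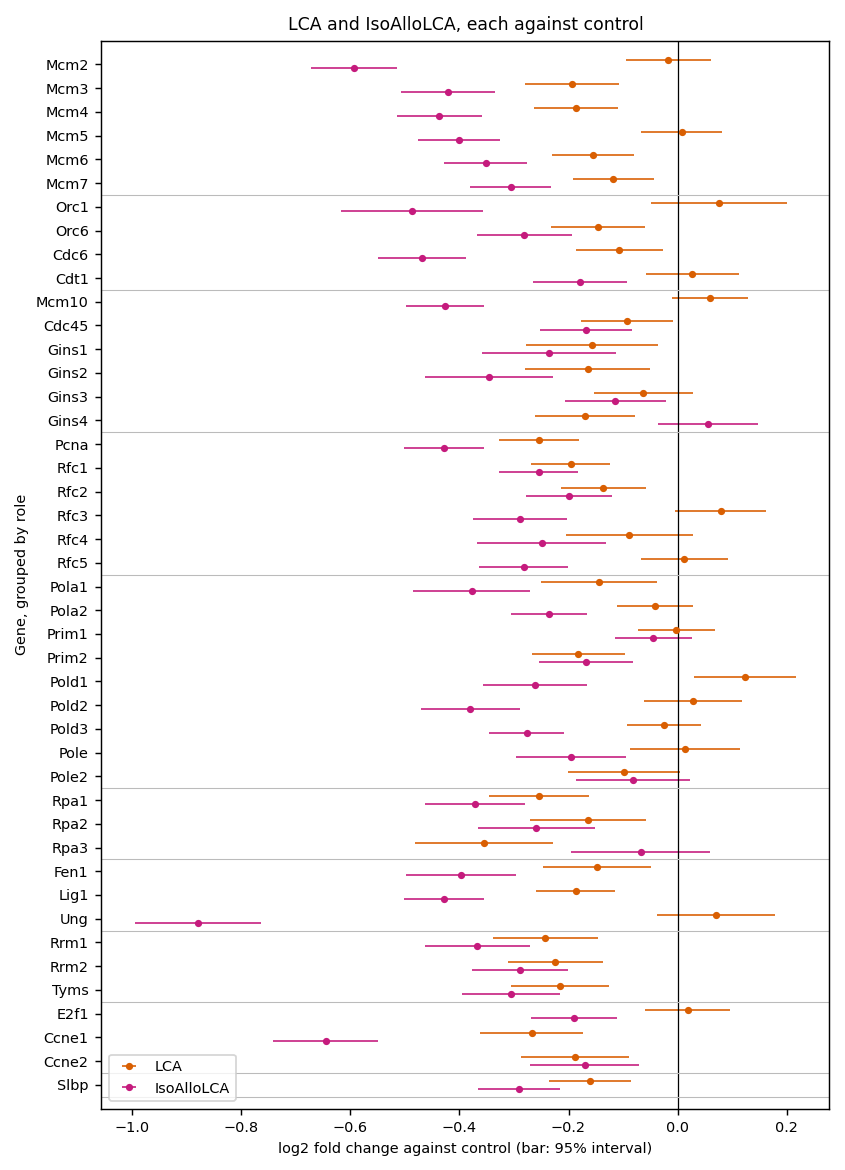
Log2 fold change against control (horizontal axis) with its 95% interval for LCA (orange) and IsoAlloLCA (magenta) for the 44 genes by role (vertical axis). Ung, Mcm2, Orc1 and Mcm10 have their LCA interval across 0 and their IsoAlloLCA interval far below it, whereas Rpa3 and Gins4 show the reverse order.

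LCA and IsoAlloLCA were also compared directly, since both were given at 50 µM. With IsoAlloLCA 30 of the 44 genes were lower than with LCA and 2 were higher, where 61.4% of all tested genes were called (32.3% higher and 29.1% lower). The largest differences were in genes that did not pass with LCA: Ung (-0.95 ± 0.06, adjusted p = 2.76e-13), Mcm2 (-0.58 ± 0.04, adjusted p = 2.32e-12), Orc1 (-0.56 ± 0.06) and Mcm10 (-0.49 ± 0.03). Mcm5, Pold2, Pold1, Ccne1, Rfc3 and Cdc6 followed, with values from -0.41 to -0.36. The 2 genes that were higher with IsoAlloLCA than with LCA were Rpa3 (0.29 ± 0.06, adjusted p = 2.77e-04) and Gins4 (0.22 ± 0.04, adjusted p = 1.07e-04). For 12 genes no difference between the acids passed. Among them Prim2, Ccne2, Rrm2 and Rfc1 had fallen with both, and the 95% interval of their difference was -0.07 to 0.10, -0.08 to 0.12, -0.15 to 0.02 and -0.13 to 0.01. Rrm1 (-0.12 ± 0.05, adjusted p = 0.0223) and Slbp (-0.13 ± 0.04, adjusted p = 0.00353) were lower with IsoAlloLCA. The Rrm1 difference was lost without IsoAlloLCA replicate 2 (-0.06) or LCA replicate 1 (-0.09), and with the exon share as covariate (-0.05). The plot of intervals for LCA and IsoAlloLCA shows both patterns.

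The count with LCA changed with single libraries. LCA replicate 2 was the lowest LCA library in 33 of the 44 genes, and without it 17 genes were called, all lower, while the share of all tested genes called lower went from 18.8% to 14.9%. Without Control replicate 3, 18 genes were called, all lower, and 16.2% of all tested genes. IsoAlloLCA replicate 2 was the lowest IsoAlloLCA library in 37 of the 44 genes, and without it 40 were still called. LCA replicate 2 and IsoAlloLCA replicate 2 had the lowest exon share of their groups, whereas Control replicate 3 had the highest of the controls (83.8%). With the exon share as a covariate, 21 genes were lower and 1 higher with LCA, and 34 were lower and 1 higher with IsoAlloLCA. In that fit 18.7% and 24.9% of all tested genes were called lower. The part of the exon share in the results was not tested beyond this fit.

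**Figure D4:**
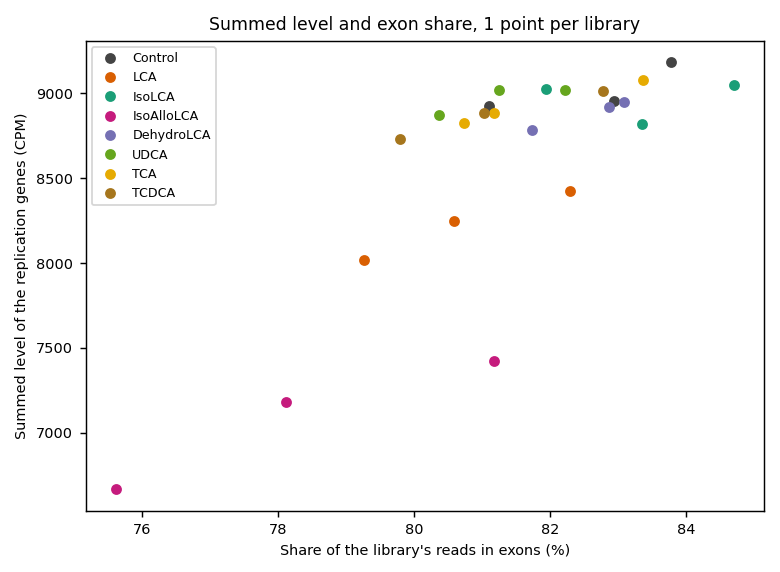
Summed CPM of the 44 genes (vertical axis) against the share of the library's reads in exons (horizontal axis, percent), 1 point per library, coloured by group. The IsoAlloLCA libraries lie at 6668 to 7421 CPM and the LCA libraries at 8017 to 8426 CPM, below all others. Exon shares span 75.6% to 81.2% with IsoAlloLCA, 79.3% to 82.3% with LCA and 79.8% to 84.7% in the other libraries. Within control, LCA, IsoAlloLCA, DehydroLCA, TCA and TCDCA the sum rises with the exon share from library to library. Within IsoLCA and UDCA it does not.

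The other 5 acids left the replication genes close to control. With IsoLCA 1 of 44 genes passed, where 9.84% of all tested genes were called (3.73% higher and 6.12% lower): Lig1 fell by 0.11 ± 0.04 (adjusted p = 0.0443), with 306, 323 and 302 CPM against 341, 332 and 332 CPM. No library overlapped, but the call was lost when any 1 of the control libraries or IsoLCA replicate 1 or 3 was left out. With UDCA, where 19.9% of all tested genes were called (9.18% higher and 10.7% lower), Rfc5, a clamp loader subunit, rose by 0.14 ± 0.04 (adjusted p = 0.0143), with 116, 116 and 112 CPM against 104, 104 and 105 CPM. The groups did not overlap, and the call was lost without Control replicate 1 or 2 or UDCA replicate 2. With the exon share as covariate 7 members were called higher with UDCA, which is 15.9% of the members, and 15.5% of all tested genes were called higher in that fit. With DehydroLCA, TCA and TCDCA edgeR called 0 members, and DESeq2 called 0 as well. Of all tested genes, 5.83% were called with DehydroLCA (2.41% higher, 3.41% lower), 0.437% with TCA (0.0843% higher, 0.353% lower) and 13.1% with TCDCA (5.08% higher, 8.04% lower). At an unadjusted p under 0.05 there were 3, 0 and 3 members, a threshold at which no share of all tested genes was computed, here or below. With the exon share as covariate edgeR called 2, 0 and 4. In that fit the 2 members lower with DehydroLCA are 4.55%, where 5.84% of all tested genes were called lower, and the 4 members higher with TCDCA are 9.09%, where 9.08% were called higher. With TCDCA 1 member was called without Control replicate 1. The 95% intervals of all 44 members lay between -0.30 (Rpa3) and 0.19 (Rfc3) with DehydroLCA, between -0.19 (Rfc4) and 0.18 (Gins3) with TCA and between -0.20 (Rfc4) and 0.18 (Ung) with TCDCA. They lay between -0.21 (Rpa3) and 0.24 (Orc1) with IsoLCA and between -0.19 (Rpa2) and 0.22 (Rfc5) with UDCA. Falls of the size seen with IsoAlloLCA for Ung, Ccne1 or Mcm2 thus lay outside the intervals of these 5 acids.

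Direct comparisons of acids at 1 dose followed the same lines. They made up 7 pairs, and those that name LCA share its 3 libraries. IsoLCA differs from LCA in the orientation of 1 hydroxyl group, and 22 of the 44 genes were higher with IsoLCA than with LCA and 2 were lower, where 30.3% of all tested genes were called (15.8% higher and 14.6% lower). Rpa3 (0.27 ± 0.06), Rrm1 (0.26 ± 0.05), Rpa1 (0.25 ± 0.04), Slbp (0.23 ± 0.04) and Pcna (0.20 ± 0.04, adjusted p = 1.32e-04) were among the higher ones. Mcm3, Mcm4, Orc6, Gins2, Prim2, Fen1 and Ccne1 were higher by 0.13 to 0.20. The 2 lower genes were Cdt1 (-0.13 ± 0.04, adjusted p = 0.0223) and Pold1 (-0.12 ± 0.05, adjusted p = 0.0428), whose libraries overlapped. Both calls were lost without LCA replicate 2 or 3, without IsoLCA replicate 1 or 3, with only the 6 libraries compared and with the exon share as covariate, and that of Pold1 also with the correction for GC content and length. The count of 24 was 12 without LCA replicate 2, 15 without IsoLCA replicate 1 and 12 with the exon share as covariate, where the median of the 44 genes went from 0.12 to 0.06. Shares of all tested genes in these fits are not given, so a loss of calls particular to the members is not shown.

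DehydroLCA, the ketone, was also above LCA: 19 genes were higher and none lower, where 17.8% of all tested genes were called (10.3% higher and 7.49% lower). Rrm2 (0.22 ± 0.04, adjusted p = 6.54e-04), Rpa1 (0.22 ± 0.04), Ccne1 (0.21 ± 0.05), Pcna (0.19 ± 0.04) and Gins2 (0.18 ± 0.06) were among them, and Slbp, Fen1, Mcm4, Prim2 and Lig1 followed with 0.12 to 0.17. In licensing no gene passed, and Orc6 came closest (0.12 ± 0.04, adjusted p = 0.0515). The count of 19 was 5 without LCA replicate 2, 9 without LCA replicate 3 and 7 without DehydroLCA replicate 1 or 2. Here too the shares of all tested genes in these fits are not given, and the loss may not be particular to the members. With the exon share as covariate the median went from 0.11 to 0.07. Between DehydroLCA and IsoLCA edgeR and DESeq2 called 0 of 44 genes, where 1.67% of all tested genes were called (1.2% higher and 0.475% lower), and 4 had an unadjusted p under 0.05. The 95% intervals of the 44 differences lay between -0.21 (Rpa3) and 0.21 (Cdt1).

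IsoAlloLCA differs from IsoLCA in the junction of the A and B rings, and this pair was far apart: 40 genes were lower with IsoAlloLCA and none higher, where 59.8% of all tested genes were called (31.7% higher and 28.1% lower). Ung (-0.94 ± 0.06, adjusted p = 5.48e-13), Mcm2 (-0.63 ± 0.04), Orc1 (-0.60 ± 0.06), Ccne1 (-0.54 ± 0.05), Mcm5 (-0.48 ± 0.04) and Cdc6 (-0.45 ± 0.04) showed the largest differences. In the other roles Mcm10, Pold2, Rrm1, Pcna, Rpa1 and Slbp lay between -0.44 and -0.36. Cdt1 (-0.08 ± 0.04), Prim1 (-0.06 ± 0.03), Gins4 (0.07 ± 0.04) and Rpa3 (0.02 ± 0.06) did not pass. UDCA compared with LCA gave 19 higher genes and none lower, where 26.9% of all tested genes were called (14.8% higher and 12% lower). Rpa3 (0.35 ± 0.06), Ccne1 (0.34 ± 0.05), Rrm2 (0.32 ± 0.04, adjusted p = 3.10e-06), Slbp (0.22 ± 0.04), Orc6 (0.20 ± 0.04) and Pcna (0.20 ± 0.04) were higher. Gins1, Prim2, Lig1 and Mcm4 were higher by 0.13 to 0.18, and the count was 12 without LCA replicate 2, a fit whose share of all tested genes is not given. Between the conjugates TCA and TCDCA edgeR and DESeq2 called 0 of 44 genes, where 3.61% of all tested genes were called (2.65% higher and 0.958% lower), 1 had an unadjusted p under 0.05, and the intervals lay between -0.20 (Ung) and 0.22 (Pola1).

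**Figure D5:**
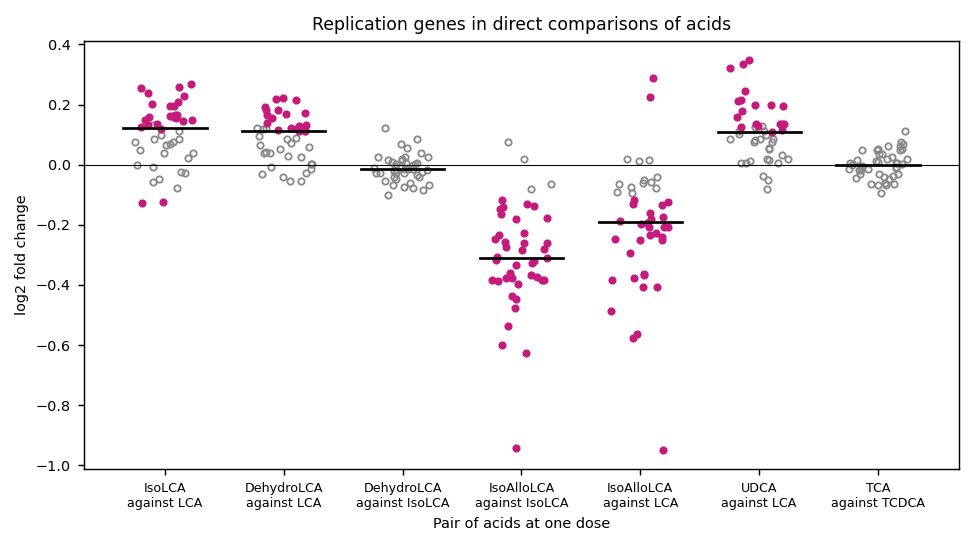
Log2 fold change (vertical axis) of each of the 44 genes in the 7 pairs of acids given at 1 dose (horizontal axis), 1 point per gene, filled where the adjusted p was under 0.05, with a bar at the median. IsoLCA, DehydroLCA and UDCA lie above LCA with medians of 0.12, 0.11 and 0.11, and IsoAlloLCA lies below IsoLCA and LCA with medians of -0.31 and -0.19.

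Other genes of the pathway were read from lists chosen by function, also with earlier results of these data known. Their counts stand against 27.8% of all tested genes lower and 30.6% higher with IsoAlloLCA, and 18.8% lower and 17.7% higher with LCA. Of 32 further origin, fork and polymerase genes, 23 fell (71.9%) and 2 rose (6.25%) with IsoAlloLCA. With LCA 6 fell (18.8%) and 5 rose (15.6%), shares near those of all genes. Dna2, a nuclease of Okazaki fragments (-0.71 ± 0.06), and Supt16, a histone chaperone subunit (-0.47 ± 0.03), fell with IsoAlloLCA, and Pold4, a small polymerase delta subunit, rose (0.58 ± 0.07) while it fell with LCA (-0.42 ± 0.07) and UDCA (-0.65 ± 0.07). Gmnn, the inhibitor of Cdt1, fell with IsoAlloLCA (-0.30 ± 0.05) and did not pass with LCA (-0.11 ± 0.05). Of 16 further nucleotide genes, 13 fell (81.2%) and none rose with IsoAlloLCA, and 6 fell (37.5%) and 2 rose (12.5%) with LCA. The thymidine kinase Tk1 stood at 116, 117 and 118 CPM in control, 98.4, 98.8 and 108 CPM with LCA and 94.1, 84.98 and 89.3 CPM with IsoAlloLCA. Tk1 and the dUTPase Dut fell with both acids (-0.38 ± 0.04 and -0.51 ± 0.05 with IsoAlloLCA and -0.20 ± 0.04 and -0.27 ± 0.05 with LCA). Gart and Shmt1, of purine and one-carbon synthesis, had large falls with IsoAlloLCA (-0.71 ± 0.05 and -0.66 ± 0.06). With LCA, Samhd1, which degrades deoxynucleotides, had the smallest adjusted p of this list (-0.37 ± 0.03).

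Of 10 genes that restore chromatin behind the fork, 10 fell with IsoAlloLCA, where 27.8% of all tested genes were lower, and 3 fell (30%) with LCA, where 18.8% were lower. Uhrf1 and Dnmt1, which maintain DNA methylation, fell with IsoAlloLCA (-0.44 ± 0.03 and -0.37 ± 0.03), as did the chromatin assembly subunit Chaf1a (-0.47 ± 0.03). With LCA Uhrf1 did not pass (-0.03 ± 0.03) and Dnmt1 fell by 0.12 ± 0.03. Of 20 genes of replication stress and S phase repair, 11 fell (55.0%) and none rose with IsoAlloLCA. With LCA 4 fell (20%) and 3 rose (15%), where 18.8% and 17.7% of all tested genes did, shares near those of all genes. The checkpoint kinase Chek1 fell with IsoAlloLCA (-0.20 ± 0.04) and rose with LCA (0.12 ± 0.04). Exo1 and Blm fell with IsoAlloLCA (-0.43 ± 0.04 and -0.37 ± 0.04).

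Regulators of the step from G1 to S are read against the same shares of all tested genes, 27.8% lower and 30.6% higher with IsoAlloLCA and 18.8% lower and 17.7% higher with LCA. Of 14 genes that promote entry, 10 fell (71.4%) and 1 rose (7.14%) with IsoAlloLCA, and 6 fell (42.9%) and 3 rose (21.4%) with LCA. The D-type cyclin Ccnd3 stood at 439, 453 and 457 CPM in control, 379, 375 and 383 CPM with LCA and 261, 217 and 256 CPM with IsoAlloLCA, without overlap (-0.25 ± 0.05 and -0.88 ± 0.05, adjusted p = 1.40e-04 and 4.37e-14). Of 21 inhibitors and repressive E2F genes, 10 rose (47.6%) and 5 fell (23.8%) with IsoAlloLCA, and 3 rose (14.3%) and 10 fell (47.6%) with LCA. The shares that fell with IsoAlloLCA and rose with LCA were thus no higher than those of all genes. Cdkn1a, the inhibitor p21, stood at 131, 134 and 147 CPM in control, 103, 89.4 and 101 CPM with LCA and 268, 232 and 259 CPM with IsoAlloLCA. It rose by 0.88 ± 0.07 with IsoAlloLCA and fell by 0.49 ± 0.07 with LCA (adjusted p = 3.76e-11 and 4.16e-06), and no library overlapped. Cdkn1b, the inhibitor p27, showed the same opposite pattern (0.88 ± 0.09 and -0.42 ± 0.09), as did the antiproliferative Btg1 (1.09 ± 0.06 and -0.24 ± 0.06) and Btg2 (1.64 ± 0.11 and -0.37 ± 0.12). The repressive E2f8 fell with both (-0.54 ± 0.04 and -0.18 ± 0.04).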

How the data were processed

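RNA-seq of 24 libraries (8 groups of 3) was analysed from 1 table of expected counts per gene that the authors deposited; per the file headers it was made with HOMER, counting reads in exons of mm10 transcripts with 1 transcript per gene and no normalization. STAR, DESeq2 and GRCm38 are further named in the submitters' processing notes, without versions. No strand option is stated, so reads of antisense or overlapping genes and of near-identical copies cannot be told apart. Counts came in steps of 0.5 (29.4% of values were not whole) and were rounded to whole numbers, 0.5 upwards. Libraries held 25998051 to 41024340.5 counts (median 32852325). No replicate pair was closer than sampling noise.

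One edgeR 4.0.16 quasi-likelihood fit (R 4.3.3, limma 3.58.1) covered all 24 libraries with 1 coefficient per group, TMM factors of 0.971 to 1.05 and edgeR's default filter on low counts, which left 13044 genes. P-values were adjusted by Benjamini-Hochberg over all tested genes, with a threshold of 0.05. Standard errors were derived from the F statistic, and intervals are 95%. The test was checked on simulated counts. CPM of the members and of the other lists used TMM-scaled library sizes, and RPKM divided them by the deposited transcript length per 1000 bases. CPM of the cell type markers used the library's counts in genes without TMM factors.

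The 44 members and the lists of other genes were chosen with earlier results of these data known, and no list is independent support. Named genes were, for each comparison and role, the member with the smallest adjusted p and the called member with the largest change, plus members of the rarer direction and those not called where these were 5 or fewer, and all called members where 5 or fewer were called. Further members are named to account for each role and were chosen after their values were seen. From the other lists, the 3 genes with the smallest adjusted p and a set of regulators could be named. Alternatives were DESeq2 1.42.0, RLE size factors, no filter on low counts, only the 6 libraries compared, a replicate block, leaving out each library and, added after the data were seen, a correction for GC content and length and the share of reads in exons as a covariate. Promoter windows came from RefSeq (GRCm38.p6).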

Additional observations from a re-analysis of the deposited data

How the results depend on the processing

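Counts of members called against control ranged, on leaving out 1 library at a time, from 17 to 26 with LCA, 0 to 2 with IsoLCA, 39 to 40 with IsoAlloLCA, 0 to 0 with DehydroLCA, 0 to 2 with UDCA, 0 to 0 with TCA and 0 to 1 with TCDCA. Between acids they ranged from 12 to 25 (IsoLCA against LCA), 5 to 21 (DehydroLCA against LCA), 12 to 20 (UDCA against LCA), 37 to 40 (IsoAlloLCA against IsoLCA), 28 to 37 (IsoAlloLCA against LCA) and 0 to 0 (DehydroLCA against IsoLCA, and TCA against TCDCA). Shares of all tested genes are not given beside the counts of this section, which therefore do not show changes particular to the members. The IsoLCA count against control was 0 without the filter on low counts and 0 with only the 6 libraries compared, where DehydroLCA had 1. With the exon share as covariate it was 2 for IsoLCA, 2 for DehydroLCA, 7 for UDCA and 4 for TCDCA against control, 12 for IsoLCA against LCA and 1 for TCA against TCDCA. The cause was not tested. Rpa3 in IsoAlloLCA against IsoLCA (0.02) turned to -0.014, -0.026 and -0.016 without IsoAlloLCA replicate 1, IsoAlloLCA replicate 3 and IsoLCA replicate 2 (range -0.026 to 0.097), and to -0.023 with the GC content and length correction. Against control it turned to 0.0087 without IsoAlloLCA replicate 2 (range -0.11 to 0.0087) and to 0.11 with the exon share as covariate, where Prim1 turned to 0.010 against control and 0.00068 against IsoLCA. None of these Rpa3 and Prim1 values had passed, and the cause was not tested.

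Of 92 named fold changes, 91 kept their direction and side of the threshold under DESeq2, 90 with RLE size factors, 89 without the filter, 87 with only 6 libraries, 84 with the GC content and length correction and 75 with the exon share. The labels do not say that replicate numbers pair the samples, and in 0 of 14 comparisons was every same-numbered pair correlated over 0.1 (r from -0.33 to 0.40), so the samples were treated as unpaired. Among LCA, IsoLCA and IsoAlloLCA all same-numbered pairs were positive, and in no other comparison. For replicates 1, 2 and 3, r was 0.27, 0.15 and 0.07 for IsoLCA against LCA. It was 0.40, 0.33 and 0.07 for IsoAlloLCA against IsoLCA and 0.32, 0.23 and 0.06 for IsoAlloLCA against LCA. As a hint from the data, 15 of 24 libraries correlated best with their own number, where an even spread over the 3 numbers gives 8; shared batches were not tested further. With the replicate block 26 members were called with LCA, 40 with IsoAlloLCA, 1 with IsoLCA, 1 with UDCA and 0 with DehydroLCA, TCA and TCDCA, and between acids 25 (IsoLCA against LCA), 21 (DehydroLCA against LCA), 20 (UDCA against LCA), 40 (IsoAlloLCA against IsoLCA) and 32 (IsoAlloLCA against LCA). With 3 libraries a group, small changes in low genes are limited by replicate spread.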

Other observations

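With UDCA, some genes outside the 44 were called although the replication genes stayed near control. Of all tested genes, 9.18% were called higher and 10.7% lower with UDCA. The genes named here were picked from the 133 tested genes of the other lists. Counts of each list with UDCA are not given here, so the named calls do not show a response of a list beyond those shares. Whether these lists exceeded the shares of all genes with UDCA was not tested. Cdc7 and Dbf4, the kinase and its partner that activate licensed origins, rose with UDCA (0.24 ± 0.07 and 0.18 ± 0.04, edgeR adjusted p = 0.0149 and 0.00277), and with IsoAlloLCA neither passed (0.02 ± 0.07 and -0.06 ± 0.04). Chek1 rose with UDCA (0.17 ± 0.04) and the chromatin remodeler Hells did too (0.17 ± 0.04). Myc, a growth regulator, fell with UDCA (-0.45 ± 0.07), IsoLCA (-0.35 ± 0.07), IsoAlloLCA (-0.46 ± 0.07) and LCA (-0.17 ± 0.07). Cdkn1a and Cdkn1b fell with UDCA (-0.33 ± 0.07 and -0.30 ± 0.10).

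Of 20 mitosis genes, 15 fell (75.0%) and 1 rose with IsoAlloLCA, where 27.8% of all tested genes were lower, and 11 fell (55.0%) with LCA, where 18.8% were lower. Plk1 and Aurka, mitotic kinases, fell with IsoAlloLCA (-0.47 ± 0.03 and -0.40 ± 0.03), and Mki67, the proliferation marker, passed with neither acid (0.01 ± 0.05 with IsoAlloLCA and 0.04 ± 0.05 with LCA). The median of the 20 genes was -0.14 with IsoAlloLCA and -0.10 with LCA. Among the 36 genes with a promoter window, the 14 with an E2F word had a median log2 fold change of -0.33 with IsoAlloLCA and -0.08 with LCA, and the 22 without one had -0.29 and -0.15. The 25 genes that fell with LCA had a median GC content of 47.8% and the 18 that did not pass 50.0%.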
